A study of Mus musculus with 9 samples.

Results

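The dendritic cell subset genes were *Flt3*, *Zbtb46*, *Batf3*, *Irf8*, *Xcr1*, *Irf4*, *Cd209a*, *Mgl2*, *Cd80* and *Cd86*, 10 of the 34638 genes in the deposited table. They were taken by gene name, as genes known for marking or directing dendritic cell subsets. Levels were measured by RNA-seq in whole lung of 9 wild-type (WT) C57BL/6 mice. The 3 groups of 3 mice were mice challenged with phosphate buffered saline (PBS), mice given recombinant mouse IL-33, an epithelial alarmin that starts type 2 inflammation, and mice given IL-33 together with LM8, an inhibitor of MyD88, the adaptor through which the IL-33 receptor signals. On each of days 0, 1, 2 and 3, mice of both IL-33 groups had 0.5 µg of the protein instilled into the trachea. LM8 was given into the peritoneum at 10 mg/kg before the IL-33 challenge. For the IL-33 model, the methods describe female mice of 6 to 8 weeks whose lungs were taken on day 4. They do not describe the LM8 mice, which are known from the series design alone, and no group received LM8 without IL-33.

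Dendritic cells take up antigen in the airways, carry it to lymph nodes and present it to T cells. Conventional dendritic cells grow under FLT3 and its ligand and fall into 2 subsets: cDC1, which depend on BATF3 and IRF8 and bear the chemokine receptor XCR1, and cDC2, which depend on IRF4 and, in many tissues, bear C-type lectins such as MGL2 and CD209a. CD80 and CD86 are the ligands through which an activated dendritic cell engages CD28 and CTLA4 on T cells. Several of the genes are also made by other cells of the lung. ZBTB46 is made by endothelium, IRF8 by monocytes and B cells, IRF4 by macrophages and lymphocytes, MGL2 by macrophages, and CD80 and CD86 by macrophages and B cells.

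Between 53877663 and 90607218 reads per mouse were counted on genes. FPKM divides the read count by the length of the gene and by the size of the library. Every gene of the set had at least 58 reads in every mouse, and all 10 had a mean of at least 0.5 FPKM in PBS mice alone, so none passed the filter on low values only through a group in which it was high. edgeR's quasi-likelihood model was fitted to the counts, and a gene passed at a Benjamini-Hochberg adjusted p under 0.05 over all genes tested. It was called when it also differed at least 2-fold. A fall in the number of cells of one type and a fall in RNA per cell cannot be told apart in bulk tissue.

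IL-33 raised most of the set, and LM8 lowered *Batf3* and *Irf4* whichever mouse was left out. In IL-33 mice, 8 of the 10 genes were called higher than in PBS mice, where 10.8% of the 16831 genes tested were. None of the 10 was called lower, against 6.24% of all genes. Without the minimum fold, 8 passed as higher and 1, *Zbtb46*, as lower, with 27.4% and 27.2% of all genes passing in these directions. The median log2 fold change of the set was 1.83, and that of all genes was -0.0053. With LM8 against IL-33 alone, 1 gene, *Batf3*, was called lower and none higher, against 3.93% and 1.46% of all genes. At an adjusted p under 0.05 alone, 7 passed as lower and none as higher, against 13.9% and 12.6%, with a median of -0.37 beside -0.0062 for all genes. When 1 mouse was left out at a time this number was between 2 and 5, and the 2 genes that passed each time were *Batf3* and *Irf4*. Compared with PBS mice, 7 genes were still called higher in IL-33+LM8 mice and none lower (5.87% and 1.46% of all genes). There, 8 passed as higher and none as lower without the minimum fold, against 16.3% and 13.4%, with a median of 1.67 beside 0.0035 for all genes.

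**Figure D1:**
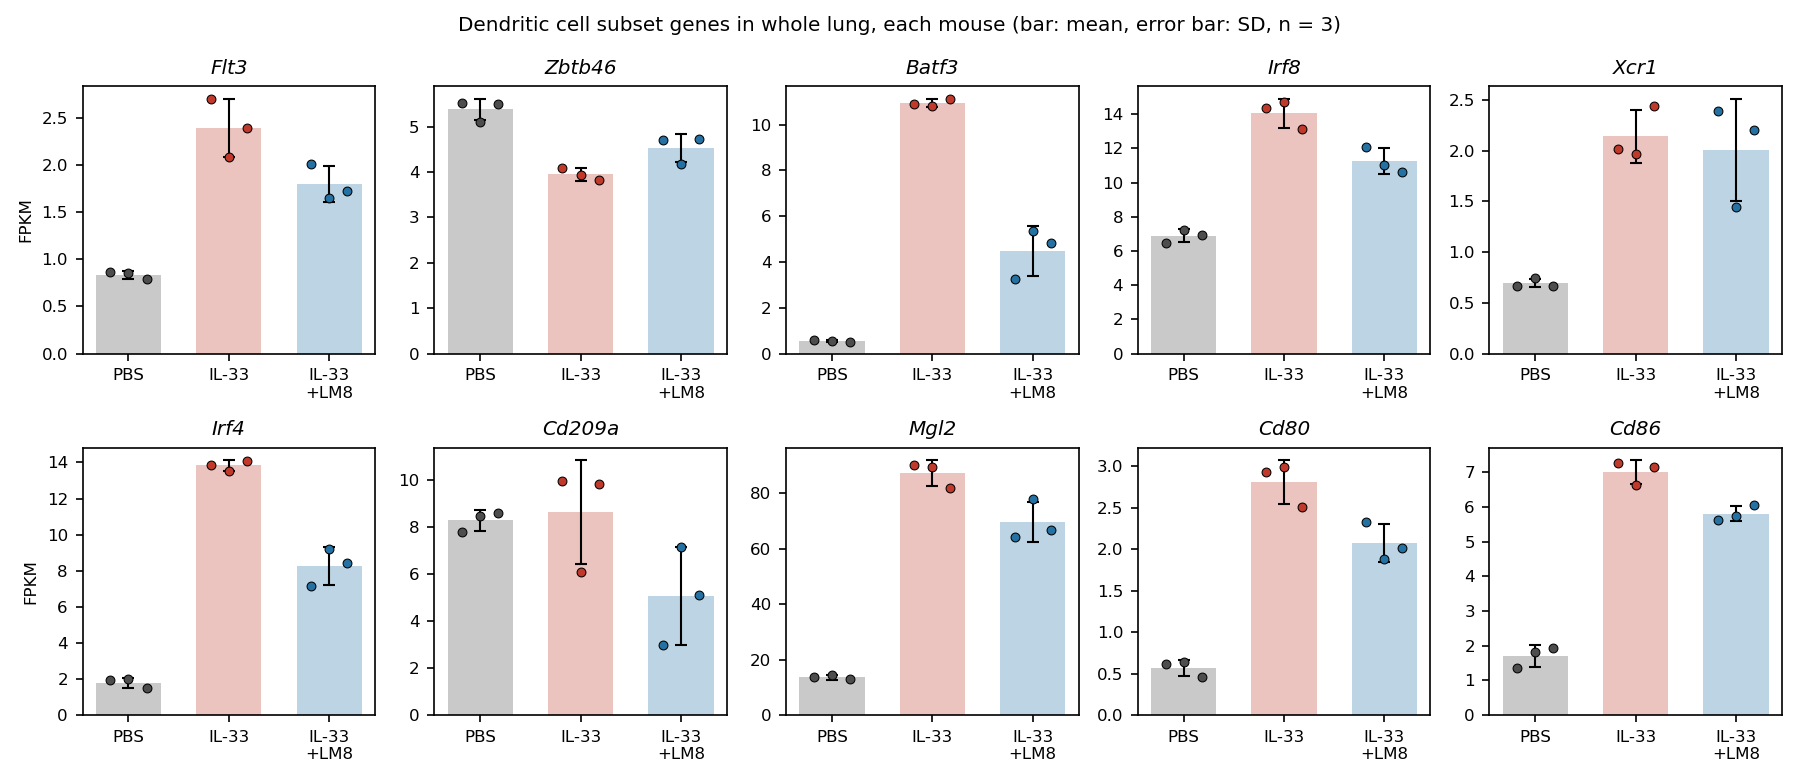
FPKM of each gene (vertical axis, starting at 0) in each mouse of the 3 groups (horizontal axis). Points are mice, bars are means and error bars are SDs. *Batf3* sits near 0.539 FPKM in PBS mice, near 11.0 with IL-33 and from 3.28 to 5.34 with IL-33+LM8, whereas *Zbtb46* is lowest in IL-33 mice and the *Cd209a* points of PBS and IL-33 mice overlap.

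*Flt3*, the receptor tyrosine kinase on which conventional dendritic cells depend, lay on the minus strand at chr5:147267551-147337299 (ENSMUSG00000042817; all such gene positions are those of the deposited table). It was 0.863, 0.850 and 0.790 FPKM in the 3 PBS mice, 2.70, 2.09 and 2.39 in the IL-33 mice, and 2.01, 1.65 and 1.73 in the IL-33+LM8 mice. No 2 of the groups overlapped, and the PBS mice were lowest. IL-33 raised *Flt3* by 1.52 on the log2 scale (standard error, SE, of 0.13, adjusted p = 6.33e-05). The decrease with LM8 was small, with a log2 fold change of -0.41 (SE 0.13, adjusted p = 0.0491), and the adjusted p reached 0.171 without IL-33 replicate 1. It was also over 0.05 when IL-33 replicate 3 (0.137), IL-33+LM8 replicate 2 (0.112) or IL-33+LM8 replicate 3 (0.151) was left out.

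The FLT3 ligand gene, *Flt3l*, moved the other way with IL-33, and it is named here although its values had been seen. Its FPKM was 16.0, 19.7 and 16.8 in PBS mice, 10.7, 13.1 and 11.0 in IL-33 mice, and 13.2, 8.71 and 10.1 in IL-33+LM8 mice. All 6 mice given IL-33, with or without LM8, were below the PBS mice. The log2 fold change was -0.59 for IL-33 against PBS (SE 0.11, adjusted p = 0.00258), and -0.12 for LM8 against IL-33 alone (adjusted p = 0.607). *Csf2*, which encodes the growth factor GM-CSF, had a log2 fold change of 0.06 with IL-33 (SE 0.42, adjusted p = 0.91). The receptor chains for GM-CSF did rise, *Csf2ra* by 2.29 and *Csf2rb* by 2.38 on the log2 scale. Both were lower with LM8, with log2 fold changes of -1.23 and -0.71. The related receptor chain gene *Csf2rb2* rose by 2.84 and had a log2 fold change of -1.03 with LM8. The part of eosinophils, neutrophils, monocytes and macrophages in these receptor values was not tested, and the marker lists of these cells are given below. Of the 11 growth factor and receptor genes tested, *Flt3* among them, 7 passed as higher and 2 as lower with IL-33, and 3 as higher and 5 as lower with LM8 against IL-33.

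*Zbtb46*, a transcription factor gene of conventional dendritic cells that endothelium also expresses (ENSMUSG00000027583, chr2:181029555-181101219, minus strand), was the single gene of the set to pass as lower with IL-33. Its FPKM was 5.52, 5.10 and 5.50 in PBS mice, 4.09, 3.93 and 3.82 in IL-33 mice, and 4.70, 4.17 and 4.72 in IL-33+LM8 mice. IL-33 mice lay below both other groups without overlap. The log2 fold change was -0.45 for IL-33 against PBS (SE 0.06, adjusted p = 0.000737), and it was 0.20 for LM8 against IL-33 alone, which did not pass (SE 0.07, adjusted p = 0.0771). Without IL-33+LM8 replicate 2 that value was 0.25, with an adjusted p of 0.0354. Against PBS, IL-33+LM8 mice had a log2 fold change of -0.23 (adjusted p = 0.0575). With the replicate number as a block in that comparison, although nothing states that it marks a pairing, the adjusted p was 0.0216. It was 0.0351 with DESeq2 and 0.0251 with all 9 mice in the edgeR fit, which also put LM8 against IL-33 at 0.0431.

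Endothelial marker genes were lower with IL-33 as well. Of 8 endothelial genes, 7 passed as lower and none as higher with IL-33, and all 8 passed as higher with LM8 against IL-33. Their summed level was 898 to 972 FPKM in PBS mice, 532 to 569 with IL-33 and 820 to 840 with IL-33+LM8, and no endothelial marker was at 0 in any group. *Cdh5*, encoding VE-cadherin, had log2 fold changes of -1.08 with IL-33 and 0.68 with LM8. Most genes of other structural lists passed as lower with IL-33 too. For 8 alveolar epithelium genes, none passed as higher and 6 as lower with IL-33, and 5 as higher and none as lower with LM8. For 5 airway epithelium genes it was 1 and 3 with IL-33, and 3 and none with LM8. For 6 fibroblast genes it was 1 and 5 with IL-33, and 2 and 1 with LM8. The part of endothelium or of these other cells in the *Zbtb46* result was not tested. The small nuclear RNA gene *Gm22708*, which overlaps *Zbtb46* on the same strand, had at most 2 reads in any mouse.

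*Batf3*, the transcription factor gene required for cDC1 development (ENSMUSG00000026630, chr1:190830044-190841142, plus strand), had the largest fold change of the set. Its FPKM was 0.570, 0.545 and 0.501 in PBS mice, 10.9, 10.8 and 11.1 in IL-33 mice, and 3.28, 5.34 and 4.84 in IL-33+LM8 mice. The 3 groups were far apart, and the IL-33+LM8 mice lay between the others. Mean FPKM was 20.3 ± 1.36-fold higher in IL-33 than in PBS mice (SD propagated from the SDs of both groups, n = 3 per group), and the log2 fold change was 4.30 (SE 0.12, adjusted p = 1e-06). LM8 brought it down by a log2 fold change of -1.28 (SE 0.18, adjusted p = 0.0021), with values from -1.43 to -1.10 and an adjusted p of at most 0.0115 over every alternative fit. In IL-33+LM8 mice, 37.9% of the IL-33 difference in mean FPKM was still there, and *Batf3* remained above PBS mice by 3.03 on the log2 scale (SE 0.24, adjusted p = 0.000213). Of the other BATF genes, *Batf* rose with IL-33 by 1.19 on the log2 scale (adjusted p = 6.33e-05), while its log2 fold change with LM8 was -0.10 (adjusted p = 0.688). *Batf2* passed in no comparison.

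*Irf8*, which encodes the partner factor of BATF3 in cDC1 (ENSMUSG00000041515, chr8:121463097-121483433, plus strand), changed far less than *Batf3*. Its FPKM was 6.49, 7.24 and 6.96 in PBS mice, 14.3, 14.7 and 13.1 in IL-33 mice, and 12.1, 11.0 and 10.6 in IL-33+LM8 mice. The groups did not overlap. IL-33 raised it by 1.03 on the log2 scale (SE 0.06, adjusted p = 1.43e-05), just over the minimum for a call, and the value was 0.99, under that minimum, without PBS replicate 1. The log2 fold change with LM8 was -0.32 (SE 0.07, adjusted p = 0.0115), and its adjusted p was 0.057 when IL-33 replicate 1 was left out and 0.0609 when IL-33+LM8 replicate 3 was. With IL-33+LM8 it was 0.72 above PBS mice on the log2 scale (adjusted p = 0.000467). Divided by *Ptprc*, a gene of all leukocytes, it was instead lower in every IL-33+LM8 mouse than in any PBS mouse, with a difference of -0.29 (exact permutation p of 0.1). Mean FPKM of *Ptprc* itself was 2.01-fold that of PBS mice. The share of all genes lower on this scale was not computed for this comparison, and it was 84.9% in IL-33 against PBS.

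*Xcr1*, the chemokine receptor gene that marks cDC1 (ENSMUSG00000060509, chr9:123681380-123691094, minus strand), rose with IL-33 and showed no detectable difference with LM8. It was 0.671, 0.741 and 0.669 FPKM in PBS mice, 2.01, 1.97 and 2.44 in IL-33 mice, and 2.39, 1.44 and 2.20 in IL-33+LM8 mice. All mice given IL-33 were above the PBS mice, and those with and without LM8 overlapped. The log2 fold change was 1.62 for IL-33 against PBS (SE 0.15, adjusted p = 9.44e-05). It was -0.09 for LM8 against IL-33 alone (SE 0.20, adjusted p = 0.782), and its sign turned when IL-33 replicate 3 (0.02) or IL-33+LM8 replicate 2 (0.09) was left out. A long noncoding RNA gene with no symbol overlaps *Xcr1* on the opposite strand and had 3 to 18 reads in PBS mice, 65 to 110 with IL-33 and 26 to 41 with IL-33+LM8, beside at least 195 for *Xcr1* in every mouse. Whether reads were counted by strand is not given in the sources used here, so reads of this pair cannot be told apart. *Xcl1*, which encodes the ligand of XCR1, had 0, 0 and 8 reads in PBS mice, 16, 16 and 23 in IL-33 mice, and 16, 8 and 3 in IL-33+LM8 mice. It was under the filter on low values and was not tested, and a count of 0 allows up to 3 reads.

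The other cDC1 marker genes did not move as 1 group. Of 12 tested, 8 passed as higher and 4 as lower with IL-33, with a median log2 fold change of 0.65. The largest rises were those of *Itgae*, encoding the CD103 integrin chain, and *Wdfy4*, needed for cross-presentation, by 2.30 and 1.79 on the log2 scale. The part of cells other than cDC1 in these rises was not tested. *Clec9a*, encoding the cDC1 receptor for dead cells, was chosen for mention after its values were seen. It was 11.4, 13.3 and 12.7 FPKM in PBS mice, 7.61, 8.17 and 6.79 in IL-33 mice, and 12.3, 9.15 and 9.59 in IL-33+LM8 mice. IL-33 mice were below both other groups, with a log2 fold change of -0.73 against PBS (SE 0.09, adjusted p = 0.000419) and of 0.46 with LM8 (SE 0.13, adjusted p = 0.033). *Cadm1*, which epithelium expresses too, followed the same course, with log2 fold changes of -0.93 and 0.50. *Xcr1* was therefore 0.0557 ± 0.0030 times the *Clec9a* level in PBS mice, 0.288 ± 0.063 times with IL-33 and 0.193 ± 0.036 times with IL-33+LM8 (SD, n = 3), with no overlap between groups and an exact permutation p of 0.1 for each difference, the smallest that 3 mice against 3 can give.

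*Irf4*, the transcription factor gene of cDC2 (ENSMUSG00000021356, chr13:30933209-30950959, plus strand), had the second largest rise of the set. Its FPKM was 1.92, 2.00 and 1.47 in PBS mice, 13.9, 13.5 and 14.1 in IL-33 mice, and 7.14, 9.20 and 8.40 in IL-33+LM8 mice. The groups were well apart, again with IL-33+LM8 mice in between. IL-33 raised it by 2.94 on the log2 scale (SE 0.12, adjusted p = 3.03e-06). LM8 lowered it, with a log2 fold change of -0.74 (SE 0.10, adjusted p = 0.00164), and the adjusted p stayed at or under 0.00944 over the alternatives. Of the IL-33 difference in mean FPKM, 53.6% was still there with LM8, and the log2 fold change against PBS mice was 2.21 (adjusted p = 0.00014).

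The IRF family divided. With IL-33, 5 of its 9 genes passed as higher and 3 as lower, and with LM8 against IL-33, 2 passed as higher and 4 as lower. *Irf5* and *Irf7* took the same course as *Irf4*, with log2 fold changes of 2.10 and 1.28 with IL-33 and of -0.64 and -0.61 with LM8. *Irf1*, which responds to interferon, went from 22.3 ± 0.437 FPKM in IL-33 mice to 35.0 ± 6.05 with LM8 (SD, n = 3), a log2 fold change of 0.65 (adjusted p = 0.00524).

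*Cd209a*, a C-type lectin gene of cDC2 and monocyte-derived dendritic cells (ENSMUSG00000031494, chr8:3793397-3798984, minus strand), did not pass in any comparison with edgeR when all 6 mice were fitted without a replicate block. It was 7.79, 8.49 and 8.63 FPKM in PBS mice, 10.0, 6.09 and 9.85 in IL-33 mice, and 2.99, 7.15 and 5.11 in IL-33+LM8 mice. PBS and IL-33 mice overlapped, whereas IL-33+LM8 mice were all below PBS mice and spread widely. The log2 fold change was 0.06 for IL-33 against PBS (SE 0.19, adjusted p = 0.823), and its sign turned without IL-33 replicate 1 or 3 (-0.04 for either). It was -0.76 for LM8 against IL-33 alone (SE 0.33, adjusted p = 0.134) and -0.69 for IL-33+LM8 against PBS (SE 0.29, adjusted p = 0.11). Without IL-33+LM8 replicate 2, the highest of its group, these values were -1.09 (adjusted p = 0.0461) and -1.02 (adjusted p = 0.0312), and both were called. With the replicate block, the comparison with PBS gave -0.77 (adjusted p = 0.0405). With DESeq2 both comparisons passed, at -0.76 (adjusted p = 0.0339) for LM8 against IL-33 alone and -0.69 (adjusted p = 0.0293) against PBS.

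*Mgl2*, encoding a galactose-binding C-type lectin of cDC2 and macrophages (ENSMUSG00000040950, chr11:70021155-70028376, plus strand), was the most abundant gene of the set in all groups. Its FPKM was 13.6, 14.5 and 12.8 in PBS mice, 90.4, 89.6 and 82.0 in IL-33 mice, and 64.1, 77.9 and 66.9 in IL-33+LM8 mice. No groups overlapped. IL-33 raised it 6.41 ± 0.514-fold in mean FPKM (SD propagated from the SDs of both groups, n = 3 per group), with a log2 fold change of 2.68 (SE 0.07, adjusted p = 6.83e-07). The log2 fold change with LM8 was -0.33 (SE 0.08, adjusted p = 0.0273), and it did not pass without IL-33 replicate 1, IL-33 replicate 2, IL-33+LM8 replicate 1 or IL-33+LM8 replicate 3, with adjusted p-values of 0.0879, 0.0836, 0.0645 and 0.0931. Most of the IL-33 difference, 76.0%, was still there.

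Its paralog *Clec10a* rose by 2.23 on the log2 scale with IL-33 (SE 0.12, adjusted p = 9.04e-06), from 1.30 ± 0.142 to 6.17 ± 0.451 FPKM (SD, n = 3). Among the *Cd209* genes next to *Cd209a*, *Cd209d* rose by 2.56 on the log2 scale with IL-33 (adjusted p = 0.000379) and by a further 0.99 with LM8 (adjusted p = 0.0243). It averaged 0.463 FPKM in PBS mice and passed the filter on low values through the mice given IL-33. *Cd209e* had 4, 0 and 41 reads in PBS mice and at least 283 in every mouse given IL-33, so the size of its fold depends on PBS replicate 3 and is not given. *Cd209f* was higher with LM8 than with IL-33 alone by 1.79 on the log2 scale (adjusted p = 0.00223). Of the 8 lectin genes tested, *Cd209a* and *Mgl2* among them, 4 passed as higher and 1 as lower with IL-33. These genes are closely related, and how reads that match several of them were counted is not given in the sources used here, so their single values are uncertain.

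Beyond *Irf4*, *Cd209a* and *Mgl2*, 9 of 11 cDC2 marker genes passed as higher and 1 as lower with IL-33, with a median log2 fold change of 1.54. *Ltb*, encoding lymphotoxin beta, rose by 2.38 and *Itgam*, the CD11b gene that neutrophils and monocytes share, by 2.16. With LM8 against IL-33, 1 passed as higher and 3 as lower. *Ltb* had a log2 fold change of -1.23 and *Sirpa*, a receptor for CD47, of -0.71. All 8 B cell marker genes also passed as higher with IL-33 and as lower with LM8, and the part of B cells in the *Ltb* values was not tested.

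*Cd80* and *Cd86*, the B7 ligand genes, lie on the same chromosome, 1789479 bases apart. *Cd80* (ENSMUSG00000075122, chr16:38275923-38316697, plus strand) was 0.615, 0.636 and 0.452 FPKM in PBS mice, 2.92, 2.99 and 2.51 in IL-33 mice, and 2.33, 1.88 and 2.02 in IL-33+LM8 mice. *Cd86* (ENSMUSG00000022901, chr16:36424231-36486443, minus strand) was 1.34, 1.81 and 1.94 FPKM in PBS mice, 7.27, 6.63 and 7.14 in IL-33 mice, and 5.64, 5.75 and 6.05 in IL-33+LM8 mice. For both genes the 3 groups were apart, with IL-33+LM8 mice much nearer to IL-33 than to PBS mice. IL-33 raised *Cd80* by 2.30 on the log2 scale (SE 0.19, adjusted p = 5.09e-05) and *Cd86* by 2.04 (SE 0.14, adjusted p = 2.8e-05). With LM8 the log2 fold changes were -0.44 (SE 0.13, adjusted p = 0.0451) and -0.27 (SE 0.07, adjusted p = 0.0339). The first did not pass when any of the 6 mice but IL-33+LM8 replicate 1 was left out, and the second when any of the 6 was, with adjusted p-values of up to 0.14 and 0.121. The ratio of *Cd80* to *Cd86* overlapped between all groups, at 0.347 ± 0.112, 0.402 ± 0.050 and 0.357 ± 0.048 in PBS, IL-33 and IL-33+LM8 mice (SD, n = 3).

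Some other ligands of the B7 and TNF families had larger log2 fold changes than this pair. *Pdcd1lg2*, encoding PD-L2, was 0.426, 0.126 and 0.190 FPKM in PBS mice, 23.9, 22.1 and 23.6 in IL-33 mice, and 3.97, 5.09 and 4.06 in IL-33+LM8 mice. It rose by 6.54 on the log2 scale with IL-33 (SE 0.38, adjusted p = 1.16e-05), and its log2 fold change with LM8 was -2.41 (SE 0.12, adjusted p = 4.64e-05). *Tnfsf4*, encoding OX40 ligand, rose by 5.10 with IL-33 (adjusted p = 3.1e-05). *Pdcd1lg2* and *Tnfsf4* averaged 0.247 and 0.0371 FPKM in PBS mice and passed the filter on low values through the mice given IL-33. The size of their folds against PBS is therefore uncertain. *Cd276*, another B7 family gene, had a log2 fold change of -1.15 with LM8 (adjusted p = 0.000783). Of the 10 costimulatory ligands tested, *Cd80* and *Cd86* among them, 9 passed as higher and none as lower with IL-33, and 6 passed as lower and none as higher with LM8. *Cd70* was at 0 in all PBS mice and was not tested.

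**Figure D2:**
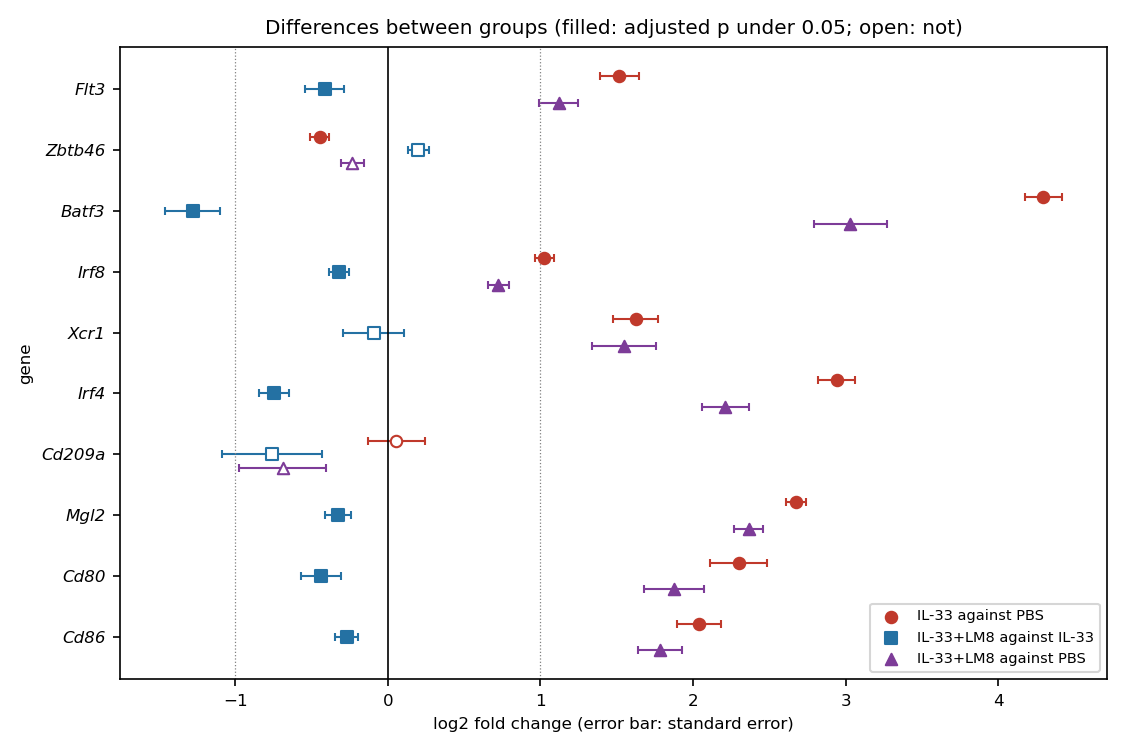
Log2 fold changes of the 10 genes (horizontal axis, error bars are standard errors) in the 3 comparisons. Filled marks passed at an adjusted p under 0.05, open marks did not, and dotted lines mark a 2-fold difference. The IL-33 rises run from 1.03 for *Irf8* to 4.30 for *Batf3*, and *Batf3* is the one gene beyond the dotted line for LM8 against IL-33.

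The promoters of *Batf3* and *Irf4*, the genes whose decrease with LM8 held with every mouse left out, are shown with those of *Irf8* and *Cd209a*, which hold the most motif matches. RefSeq sequence (GRCm38.p6) from 250 bases before to 50 bases after the transcription start was at hand for 9 of the 10 genes, with 2 starts for *Irf8* and none for *Cd86*. Both strands were searched for TGANTCA (AP-1, which BATF proteins join), GGAANNGAA (a composite of ETS and IRF sites), GAAANNGAA (a core of the interferon response element) and TTCNNNGAA (STAT), where N is any base. Capitals mark the matches, and each sequence runs 5′ to 3′ on the strand of its gene. *Batf3* is chr1:191098164-191098463, plus strand. *Irf4* is chr13:30748983-30749282, plus strand. *Irf8*, first start, is chr8:120736108-120736407, plus strand. *Cd209a* is chr8:3748935-3749234, minus strand.
Batf3: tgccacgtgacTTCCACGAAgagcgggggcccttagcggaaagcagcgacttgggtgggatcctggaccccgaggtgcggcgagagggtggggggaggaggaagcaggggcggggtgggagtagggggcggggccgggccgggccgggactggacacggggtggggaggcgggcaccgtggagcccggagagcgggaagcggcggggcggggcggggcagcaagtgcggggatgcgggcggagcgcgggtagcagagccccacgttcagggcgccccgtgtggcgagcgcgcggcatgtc
Irf4: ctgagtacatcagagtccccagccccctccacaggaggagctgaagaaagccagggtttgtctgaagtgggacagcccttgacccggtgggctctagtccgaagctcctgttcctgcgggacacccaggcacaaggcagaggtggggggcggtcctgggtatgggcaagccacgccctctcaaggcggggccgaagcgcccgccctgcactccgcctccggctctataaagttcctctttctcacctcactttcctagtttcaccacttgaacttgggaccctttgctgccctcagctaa
Irf8: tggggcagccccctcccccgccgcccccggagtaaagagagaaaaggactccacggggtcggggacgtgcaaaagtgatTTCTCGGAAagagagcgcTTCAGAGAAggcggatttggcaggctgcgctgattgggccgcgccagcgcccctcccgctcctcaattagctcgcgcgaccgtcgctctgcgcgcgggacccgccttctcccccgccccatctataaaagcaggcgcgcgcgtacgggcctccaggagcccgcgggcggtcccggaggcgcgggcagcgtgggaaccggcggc
Cd209a: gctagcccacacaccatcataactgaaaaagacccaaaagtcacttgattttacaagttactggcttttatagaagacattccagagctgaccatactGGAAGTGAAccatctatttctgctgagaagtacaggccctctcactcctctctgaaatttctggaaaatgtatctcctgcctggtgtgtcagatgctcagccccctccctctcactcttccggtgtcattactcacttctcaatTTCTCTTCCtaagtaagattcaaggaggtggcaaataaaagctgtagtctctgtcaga

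The *Batf3* window held 1 STAT match, TTCCACGAA, 239 bases before the start. The *Irf8* window held 2 STAT matches, TTCTCGGAA and TTCAGAGAA, 171 and 153 bases before the start. *Cd209a*, which did not pass with edgeR, had 2 matches of the ETS and IRF composite, GGAAGTGAA at 152 bases before the start and, on the other strand, TTCTCTTCC, which ends at the start itself. The *Irf4* window held none. In the remaining windows, *Zbtb46* and *Cd80* had 1 AP-1 match each, and *Flt3*, *Xcr1*, *Mgl2* and the second *Irf8* start had none. Over all 32851 promoters of this length, 7.81% held the AP-1 motif, 8.24% the composite, 8.56% the interferon core and 8.3% the STAT motif. Among the 10 windows of the set 2, 1, 0 and 2 did. None of these matches overlapped another.

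*Ptprc*, the single leukocyte gene used here as a common scale, encodes the antigen CD45 and was 7.75 ± 0.463 FPKM in PBS mice, 20.6 ± 0.760 with IL-33 and 15.6 ± 1.86 with IL-33+LM8 (SD, n = 3). Set against *Ptprc* of the same mouse, *Batf3*, *Irf4*, *Mgl2*, *Cd80* and *Cd86* were still higher in every IL-33 mouse than in any PBS mouse, by 2.94, 1.55, 1.27, 0.91 and 0.65 on the log2 scale. *Xcr1* was higher by 0.21, also without overlap. *Flt3* overlapped, with a difference of 0.10. *Irf8* turned round, with a difference of -0.38 and IL-33 mice all below PBS mice, and *Cd209a*, which had not passed, had -1.39. *Zbtb46* had -1.86. So 6 genes of the set were higher without overlap on this scale and 3 lower, where 5.47% of all genes tested were higher and 84.9% lower. Each difference without overlap had an exact two-sided permutation p of 0.1.

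Relative to *Ptprc*, the comparison of LM8 with IL-33 left 2 genes whose groups were apart. *Batf3* was lower, with a difference of -0.91 on the log2 scale, and *Zbtb46* was higher by 0.61 (exact permutation p of 0.1 each). Of all genes tested, 5.9% were lower and 55.4% higher without overlap on this scale. *Irf4* had a difference of -0.34 with overlapping groups, and the others lay between -0.41 for *Cd209a* and 0.29 for *Xcr1*. *Mgl2*, *Irf8* and *Cd86*, which had passed as lower, had differences of 0.08, 0.09 and 0.14, all with overlapping groups.

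**Figure D3:**
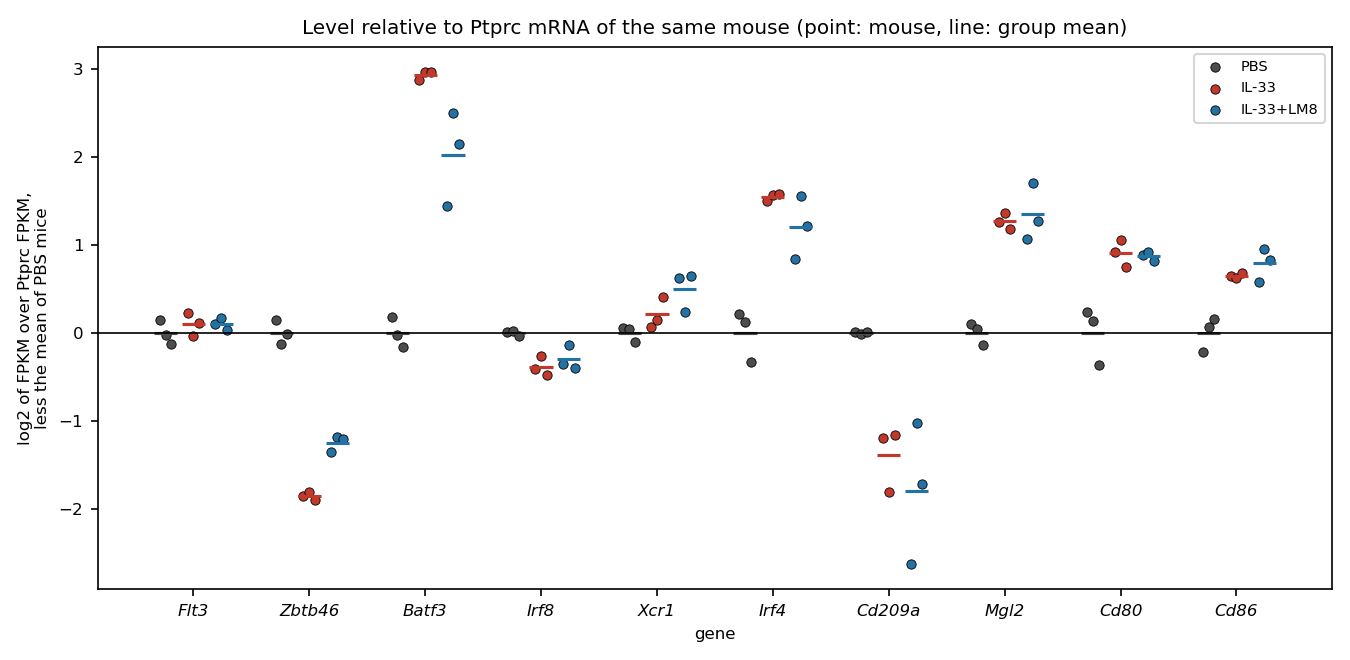
Log2 of the ratio of each gene's FPKM to that of *Ptprc* in the same mouse, less the mean of PBS mice (vertical axis), by gene (horizontal axis). Points are mice and lines are group means. *Batf3* stands highest in IL-33 mice (2.94) and is lower in every IL-33+LM8 mouse, *Irf8* lies below the PBS mice by 0.38 in the mean, and *Flt3* shows no separation.

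Ratios between pairs of genes were also taken within each mouse. *Batf3* was 0.778 ± 0.063 times the level of *Xcr1* in PBS mice, 5.16 ± 0.517 times in IL-33 mice, and 1.37, 3.71 and 2.20 times in the 3 IL-33+LM8 mice. *Irf4* was 0.261 ± 0.044 times the level of *Irf8* in PBS mice, 0.987 ± 0.080 times with IL-33 and 0.737 ± 0.129 times with IL-33+LM8 (SD, n = 3). Neither ratio overlapped between any groups. *Mgl2* was 10.6 ± 1.46 times *Clec10a* in PBS mice, 14.2 ± 0.308 times with IL-33 and 11.9 ± 1.22 times with IL-33+LM8. These ratios were chosen after the values were seen. Over 6 pairs and 18 comparisons the smallest exact permutation p was 0.1, or 0.138 after Benjamini-Hochberg adjustment, so none could pass at this number of mice.

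The order of levels within the set also differed by group. In PBS mice *Mgl2* was followed by *Cd209a* (8.30 FPKM), *Irf8* (6.90) and *Zbtb46* (5.38), all apart from their neighbours, and *Batf3* came last at 0.539, overlapping *Cd80* at 0.568. In IL-33 mice *Irf8* (14.1) and *Irf4* (13.8) came next to *Mgl2* and overlapped each other, *Batf3* stood in the fourth place at 11.0, and *Cd80*, *Flt3* and *Xcr1* at the bottom overlapped neighbour by neighbour. In IL-33+LM8 mice *Cd86*, *Cd209a*, *Zbtb46* and *Batf3*, between 5.81 and 4.49 FPKM, overlapped neighbour by neighbour.

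The 3 IL-33+LM8 mice did not keep 1 order across the set. Replicate 1 had the lowest values of *Batf3*, *Irf4*, *Cd209a*, *Mgl2* and *Cd86*, and the highest of *Xcr1*, *Flt3*, *Irf8* and *Cd80*. Replicate 2 had the highest *Batf3*, *Irf4*, *Cd209a* and *Mgl2* and the lowest *Xcr1*, *Flt3*, *Zbtb46* and *Cd80*. *Ptprc* was 17.3, 13.6 and 15.7 FPKM in replicates 1, 2 and 3.

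Genes with the most similar course over the 9 mice were found among all 16831 genes by the root mean square difference of log2(FPKM + 1), each less its mean in PBS mice. Adding 1 shrinks the changes of genes at low levels, so genes that are near by this measure can differ in fold change. *Fer1l6* went from 0.165 FPKM in PBS mice to 5.82 with IL-33, and *Mgl2*, to which it was nearest, from 13.6 to 87.3. For *Batf3* these were *Fcgr2b*, an inhibitory Fc receptor gene (0.0967), *Clec4a3* (0.148) and *Il1rl1*, the IL-33 receptor gene (0.154). *Irf4* was nearest to *Ccr2*, a chemokine receptor gene of monocytes (0.0487), *Cfp*, encoding properdin (0.0845), and *Pcsk1* (0.112). *Mgl2* was nearest to *Fer1l6* (0.106), *Ccr1* (0.172) and the complement gene *C3* (0.188), and *Xcr1* to *Rassf5* (0.0845), *Il17ra* (0.0892) and *Ggt5* (0.111). *Flt3* and *Irf8* shared *Ticam2* and *Tmem154* among their 3 nearest. The genes nearest to *Zbtb46* were *Foxp1*, *Ralgapa1* and *Zfp672* (0.0263 to 0.0294), and those nearest to *Cd80* were *Themis2*, *Sema4a* and *Lsp1* (0.0477 to 0.0769). The nearest to *Cd86* were *Tnfsf14*, *Nrros* and *Tifab* (0.124 to 0.130), while the nearest to *Cd209a* was farther off (0.218) than the nearest of any other gene of the set.

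Genes common to conventional dendritic cells were led by *Itgax*, encoding CD11c, which alveolar macrophages share. It was 9.25, 7.22 and 8.66 FPKM in PBS mice, 70.1, 68.5 and 71.7 in IL-33 mice, and 27.5, 31.0 and 28.1 in IL-33+LM8 mice. It rose by 3.06 on the log2 scale with IL-33 (SE 0.10, adjusted p = 1.42e-06) and had a log2 fold change of -1.28 with LM8 (SE 0.07, adjusted p = 5.1e-05). Of the 11 genes of this list tested, *Flt3* and *Zbtb46* among them, 7 passed as higher and 3 as lower with IL-33, and 3 as higher and 5 as lower with LM8. Among 14 transcription factor genes of dendritic cell development, 9 passed as higher and 4 as lower with IL-33, led by *Runx3* and *Spi1* at 2.26 and 2.24 on the log2 scale. With LM8, 1 passed as higher and 7 as lower.

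Of 15 maturation genes, 12 passed as higher and 2 as lower with IL-33, with a median log2 fold change of 1.56. *Ccl17* and *Ccl22*, encoding chemokines that draw CCR4-bearing T cells, rose by 4.11 and 4.10 on the log2 scale. With LM8 against IL-33, 11 passed as lower and 1 as higher, with a median of -0.66. *Il4i1*, an amino acid oxidase gene, had a log2 fold change of -1.59, *Fscn1*, the gene of the actin bundler of mature dendritic cells, of -1.13, and *Ccr7*, encoding the receptor that guides them to lymph nodes, of -0.94. *Il4i1* averaged 0.0961 FPKM in PBS mice and passed the filter on low values through the mice given IL-33.

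**Figure D4:**
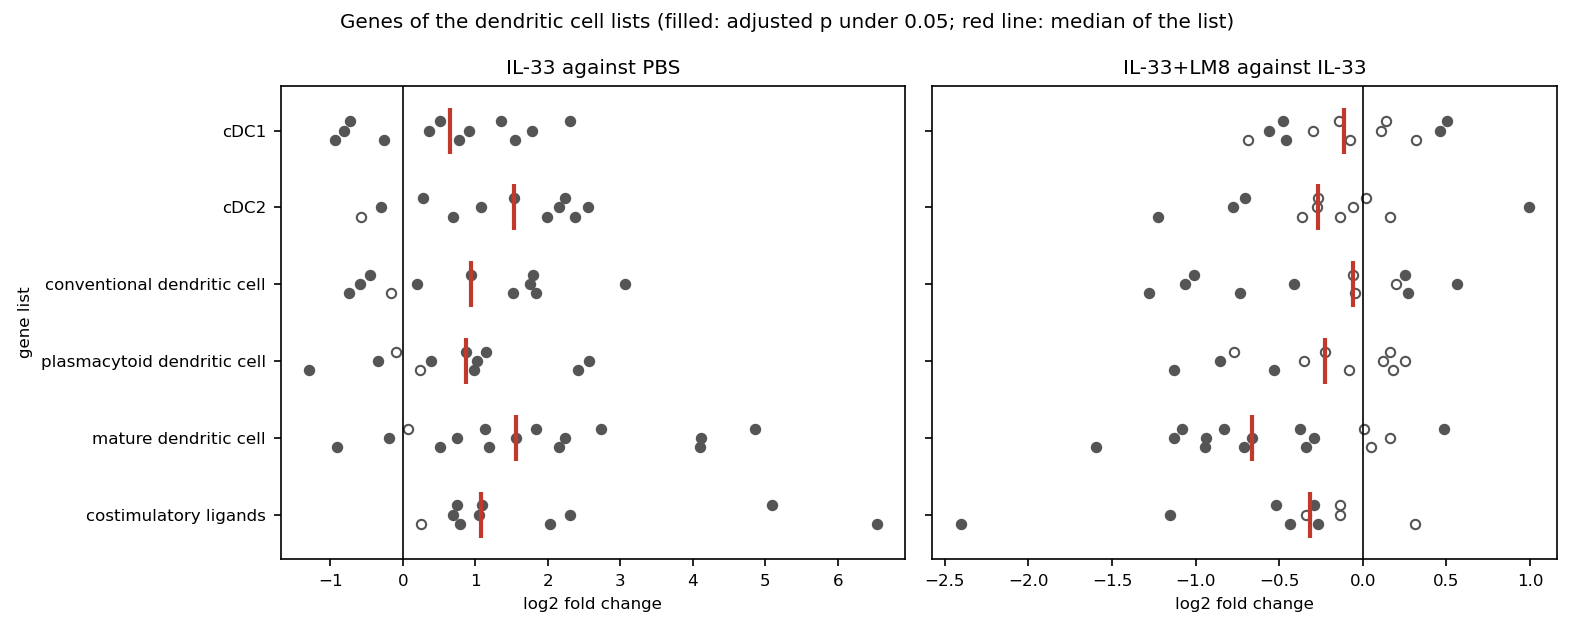
Log2 fold changes (horizontal axis) of the genes of 6 lists (vertical axis) for IL-33 against PBS and for LM8 against IL-33 alone. Each point is a gene, filled where its adjusted p was under 0.05, and red lines are list medians. The cDC1 list spreads to both sides of 0 with a median of 0.65, and the maturation list has the largest medians of the 6 in size, 1.56 and -0.66.

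Marker lists of other cells were measured in the same mice. Of 10 interstitial macrophage genes, 8 passed as higher and 2 as lower with IL-33, and 1 as higher and 7 as lower with LM8, and their summed level was 197 to 208 FPKM in PBS mice, 642 to 685 with IL-33 and 388 to 414 with IL-33+LM8. The 10 monocyte genes summed to 834 to 917, 4678 to 5234 and 2457 to 2815 FPKM, with 7 passing as higher and 2 as lower with IL-33, and 4 each way with LM8. All 8 B cell genes passed as higher with IL-33 and all 8 as lower with LM8, with sums of 38.7 to 48.3, 136 to 175 and 88.5 to 103 FPKM. The 8 neutrophil genes all passed as higher with IL-33 and again with LM8 (28.7 to 35.1, 195 to 219 and 920 to 1061 FPKM). Eosinophil genes summed to 84.7 to 92.6, 643 to 697 and 155 to 191 FPKM, with *Epx* at 0 in all PBS mice. Of 7 NK cell genes, none passed as higher and 6 as lower with IL-33, and 1 passed each way with LM8, and they summed to 32.5 to 51.1, 17.9 to 19.4 and 20.5 to 34.1 FPKM. The 10 alveolar macrophage genes went both ways, 4 passing as higher and 5 as lower with IL-33 and 4 each way with LM8, with sums of 156 to 179, 170 to 183 and 153 to 186 FPKM. The part of these cells in the changes of *Batf3*, *Irf4*, *Irf8*, *Mgl2*, *Cd80* and *Cd86* was not tested.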

How the data were processed

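Lung RNA from 9 mice was sequenced. The authors deposited 1 table that gives, gene by gene, the read counts and the FPKM of every mouse. The submitters' processing notes name HISAT2 2.0, StringTie 1.3.0, Bowtie 0.12.2 and mm10, without their roles. Start and end of all 10 genes differ from GENCODE M21 on GRCm38 while their lengths match, so gene positions are given as deposited, with no build, and promoter positions as GRCm38.p6. Groups came from the treatment labels, and replicate numbers from the titles.

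Counts were tested with edgeR 4.0.16 (R 4.3.3, TMM, quasi-likelihood). The 6 mice of a comparison made up its fit, and genes entered when their FPKM averaged 0.5 or more across the 9 mice. SE was taken as the log2 fold change over the square root of F. Calls needed an adjusted p under 0.05 and a log2 fold change of 1 or more in size. Single values were compared by exact two-sided permutation, which cannot go below 0.1. Alternatives used DESeq2 1.42.0, limma 3.58.1 on log2(FPKM + 1) and log2(FPKM + 0.1), other filters and size factors, 1 fit for the 9 mice together, a block by replicate number, and leaving out single mice. The fits were tested on simulated counts. The genes and lists were chosen with earlier results of these data known. Named from each dendritic cell, partner and family list were up to 4 genes per comparison that passed, did not overlap between groups and changed most, not all of which are printed, and genes said to be chosen after their values were seen. *Csf2*, *Batf2* and *Xcl1* do not meet this rule and count as chosen after their values were seen. From the lists of other cells, sums and counts are given, with *Cdh5* chosen after its values were seen. The 2 comparisons with PBS share the PBS mice. IL-33 against PBS and IL-33+LM8 against IL-33 share the IL-33 mice, whose error enters these fold changes with opposite sign. A rise followed by a fall, or the reverse, is therefore not 2 independent results.

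The replicate numbers are shared by the 3 groups and nothing states that they mark a litter or day. Deviations of same-numbered mice correlated at 0.31 to 0.67 in IL-33+LM8 against PBS, at -0.42 to 0.28 in IL-33 against PBS and at -0.40 to 0.22 in IL-33+LM8 against IL-33. For mice of different numbers the ranges were -0.44 to 0.20, -0.47 to 0.65 and -0.40 to 0.67 in the same order. Values as high were thus reached without a shared number, so the correlations do not show a pairing. In the paragraphs on single genes, blocked values are given for IL-33+LM8 against PBS alone. Libraries of a group varied 24.1 times or more as much as sampling alone would. The sources mention no molecular identifiers, so a count of 0 limits counting error only.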

Additional observations from a re-analysis of the deposited data

How the results depend on the processing

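The minimum fold and the scale set the numbers called. IL-33 against PBS gave 2865 genes and 8 of the set, and 1741 and 5 by limma on log2(FPKM + 1), 1176 and 4 at a mean FPKM of at least 5 (5 of the set tested), and 9193 genes with no minimum fold. IL-33+LM8 against IL-33 gave 907 genes, and 439 by limma, 304 at 5 FPKM and 4459 with no minimum fold, while the set went from 1 to 7 with no minimum fold and was 1 to 2 with each mouse left out. IL-33+LM8 against PBS gave 1233 genes and 7 of the set, 588 and 4 by limma, 469 and 3 at 5 FPKM, and 4997 genes with no minimum fold. The cause was not tested, apart from the fewer genes tested at 5 FPKM and the pseudocount, which shrinks folds of low genes. A replicate block gave 2841, 836 and 1364 genes in these comparisons. It changed no call of the set at the 2-fold minimum. In no comparison are mice known to share more than a number. At an adjusted p under 0.05 alone the block added *Zbtb46* and *Cd209a* in IL-33+LM8 against PBS. It removed *Cd80* (0.0887) and *Cd86* (0.091) in IL-33+LM8 against IL-33. In that last comparison, 3 of the set passed as lower with no filter on low values, 5 with all 9 mice in the fit and 8 with DESeq2, *Cd209a* being the one added, beside 7. The direction turned for *Cd209a* with IL-33 (-0.042 to 0.27 with each mouse left out) and for *Xcr1* with LM8 (-0.23 to 0.093). Relative to *Ptprc* it turned for *Irf8* with IL-33 (-0.38) and with IL-33+LM8 against PBS (-0.29), both without overlap, and, with overlapping groups, for *Mgl2* (0.0802), *Irf8* (0.0905), *Cd86* (0.14) and *Xcr1* (0.29) in LM8 against IL-33. *Cd209a* went from 0.06 to -1.39 with IL-33 on that scale. There, 84.9% of all genes were lower without overlap with IL-33, and the share was not computed for IL-33+LM8 against PBS. At 0 to 23 reads per mouse, *Xcl1* was too low to test.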

Other observations

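The receptors on T cells that CD80, CD86 and the related ligands engage were measured in the same lungs. Of 9 such genes, 6 passed as higher and none as lower with IL-33, and none as higher and 4 as lower with LM8 against IL-33 (edgeR's quasi-likelihood test, adjusted p under 0.05). *Ctla4*, the inhibitory receptor for CD80 and CD86, went from 0.593 ± 0.012 FPKM in PBS mice to 8.67 ± 1.21 with IL-33 and 2.85 ± 0.198 with IL-33+LM8 (SD, n = 3), with log2 fold changes of 3.86 with IL-33 and -1.60 with LM8 (adjusted p = 2.05e-06 and 0.000238). *Cd28*, the activating receptor for the same ligands, was 1.13 ± 0.089, 1.31 ± 0.092 and 1.37 ± 0.204 FPKM and passed in no comparison. *Pdcd1*, encoding the receptor of PD-L2, rose by 5.24 on the log2 scale with IL-33 (adjusted p = 2.62e-05). It averaged 0.439 FPKM in PBS mice and passed the filter on low values through the mice given IL-33, so the size of this fold is uncertain. *Cd28* was chosen after its values were seen. Of 8 T cell marker genes, 6 passed as higher and none as lower with IL-33, none was called, and the median log2 fold change was 0.60. With LM8 against IL-33, 1 of them passed as lower and none as higher. Of 8 ILC2 marker genes, 7 passed as higher and 1 as lower with IL-33, and 1 as higher and 5 as lower with LM8. Which cells made the receptor mRNAs was not tested.

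Plasmacytoid dendritic cell genes were mixed. Of 11 tested, 7 passed as higher and 2 as lower with IL-33, with a median log2 fold change of 0.88, and 3 passed as lower with LM8. *Spib* and *Ly6d*, which B cells also express, rose by 2.57 and 2.41 on the log2 scale, and *Cox6a2*, a cytochrome oxidase subunit gene, had a log2 fold change of -1.29 (adjusted p = 0.0169).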
